A study of Mus musculus with 12 samples.

Results

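The genes that differed between WT and AhR-deficient (KO) mouse colonic organoids in the same way in both culture conditions are described here. The members are the 12 libraries of the series, 6 KO and 6 WT, and the measure is the main effect of genotype. For each gene this is the mean of the KO minus WT difference in the stem cell condition and the KO minus WT difference in the differentiated condition, on the scale of log2(normalized count + 1). Of 48795 genes in the table, 14856 had a value of at least 10 in at least 3 libraries and were tested. A gene is written as called when its limma p-value, adjusted by Benjamini-Hochberg over all 14856 genes, was under 0.05. It is written as common when it was called and, in each condition, all 3 KO libraries lay on the same side of all 3 WT libraries. For genes taken from the common set, lack of overlap within a condition is thus given by the definition and is no further support.

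Colon crypts of C57BL/6 mice, WT or AhR-/-, were grown in matrigel as organoids, which are cultured epithelial structures that contain stem cells and their progeny. The stem cell condition was WENR medium, with Wnt-3A, Noggin, Rspondin-1 and EGF, and gave 3 WT (WT stem) and 3 KO (KO stem) libraries. For the differentiated condition, organoids of the same origin were kept for 3 days in medium without Wnt-3A, again with 3 WT (WT differentiated) and 3 KO (KO differentiated) libraries. All 12 organoid cultures share the strain background and the tissue. The labels do not say whether libraries of 1 group came from separate mice, so p-values measure the spread between these libraries, which may be technical.

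AhR is a ligand-activated transcription factor of the cytosol. On binding a ligand it moves to the nucleus, pairs with ARNT and binds DNA motifs with a GCGTG core, where it induces xenobiotic-metabolising enzymes such as cytochrome P450 1 family members and its own repressor AHRR. In the intestine it is known for sensing dietary and microbial ligands and for its part in barrier defence.

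The libraries held 25057534 (WT differentiated replicate 3) to 99023592 reads (KO stem replicate 1). All 10 epithelial identity genes on the list used here, such as Cdh17 and Lgals4, were above 0 in every library. The summed normalized count of the 15 fibroblast and muscle markers was 22566 in WT stem replicate 1, 649 in KO stem replicate 3 and 60.2 to 171 in the other libraries. In WT stem replicate 1, 10 of the 15 were above 0, among them Vim at 13196 and Col1a1 at 4788. Dcn, Lum, Des, Myh11 and Thy1 were at 0 there. Lum was at 0 in every library, and Dcn and Thy1 in most. The 13 immune, blood and endothelial markers summed to 976 to 4603, with Cd3e and Tyrobp at 0 in every library. Most of each sum was the single gene Cd68, as with 1617 of 1707 in WT stem replicate 1 and 4551 of 4603 in KO stem replicate 2. WT stem replicate 1 therefore stands apart from its group, and some values that change without it are given beside the results. In bulk RNA, fewer cells of a type and less RNA per cell cannot be told apart.

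The condition took 72.1% of the total sum of squares over the tested genes, genotype 9.42%, their interaction 3.38% and the spread between libraries of 1 group 15.1%.

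Ahr itself (ENSMUSG00000019256, GRCm38 chromosome 12, 35497974 to 35535038) was higher in the KO libraries. Its normalized counts were 1762, 1746 and 1909 in WT stem, 2503, 2831 and 2690 in KO stem, 2127, 2236 and 2260 in WT differentiated and 3824, 3356 and 3110 in KO differentiated. All 6 KO libraries lay above all 6 WT libraries, and the main effect was 0.60 ± 0.06 (log2, SE; adjusted p = 6.15e-05, limma). The value sums reads over the gene and does not tell its targeted part from the rest, so this level is no check of the labels, and KO stands throughout for the libraries labelled AhR deficient. The established AhR target Cyp1b1, a cytochrome P450 that oxidises aromatic hydrocarbons and steroids, was low in every one of them. Its normalized counts were 8502, 7479 and 8453 in WT stem against 571, 408 and 269 in KO stem, and 574, 680 and 634 in WT differentiated against 20.6, 16.0 and 13.0 in KO differentiated. The KO mean was 19.6-fold lower in the stem cell condition and 38.1-fold lower in the differentiated condition (main effect log2 -4.77 ± 0.16, adjusted p = 1.92e-08). The groups did not overlap, and KO stem stayed below WT differentiated as well.

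Nqo1, an NAD(P)H quinone reductase and a further AhR target, read 1938, 1566 and 2047 in WT stem, 442, 523 and 546 in KO stem, 703, 709 and 788 in WT differentiated and 227, 399 and 395 in KO differentiated. All 6 KO values were under all 6 WT values, and Nqo1 fell by 1.51 ± 0.14 (log2, adjusted p = 5.41e-05). Of the 14 genes on the AhR target list, 8 were tested, and 4 of these fell and none rose, with a median main effect of -0.81. The background over all tested genes was 23.6% called, 10.6% higher and 13.0% lower in KO, with a median of -0.01. The other 2 that fell were Ugt1a6a, a glucuronosyltransferase, at -3.58 ± 0.34 (adjusted p = 7.27e-05) and Gsta1, a glutathione transferase, at -1.06 ± 0.20 (adjusted p = 0.00383). Tiparp, a poly-ADP-ribose polymerase that AhR induces, did not pass the test (log2 -0.57 ± 0.28, adjusted p = 0.178). Its normalized counts ran from 1819 (replicate 1) to 5317 within WT stem alone. In the differentiated condition Tiparp read 1942, 2087 and 2181 in WT and 769, 1364 and 1310 in KO, lower without overlap. Cyp1a1 and Ahrr were not tested. Cyp1a1 was listed at 0 in 10 of the 12 libraries with a highest value of 8.08 in WT stem replicate 3, and Ahrr reached 9.78 at most. The AhR partners and cofactors, 14 genes, held 2 that rose (Ahr and, with a call lost in 13 alternatives, the chaperone Hsp90aa1) and 2 that fell (Arnt2 and the coactivator Ncoa2), with a median of -0.03. Arnt, the dimerisation partner, was at log2 0.00 ± 0.07 with values from 3031 to 4035 over all 12 libraries.

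The promoter windows of 2 AhR targets, of the leading colonocyte fall Slc9a3 and of the common rise Timp3 are shown because the GCGTG core is the sequence through which the AhR and ARNT pair is known to bind. The windows run from 250 bases before to 50 after the start site, 300 in all, and come from RefSeq on GRCm38.p6, 5′ to 3′ on the strand of the gene. They are chr17:79715012-79715311 (minus strand), chr8:107403156-107403455 (minus strand), chr13:74121163-74121462 (plus strand) and chr10:86300162-86300461 (plus strand). Capitals mark GCGTG or, on the other strand, CACGC.
Cyp1b1: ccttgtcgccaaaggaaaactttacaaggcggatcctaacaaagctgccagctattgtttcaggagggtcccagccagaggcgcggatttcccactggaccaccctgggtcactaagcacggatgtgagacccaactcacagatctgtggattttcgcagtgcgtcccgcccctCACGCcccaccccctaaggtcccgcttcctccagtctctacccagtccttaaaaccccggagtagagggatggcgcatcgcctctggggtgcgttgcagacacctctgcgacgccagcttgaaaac
Nqo1: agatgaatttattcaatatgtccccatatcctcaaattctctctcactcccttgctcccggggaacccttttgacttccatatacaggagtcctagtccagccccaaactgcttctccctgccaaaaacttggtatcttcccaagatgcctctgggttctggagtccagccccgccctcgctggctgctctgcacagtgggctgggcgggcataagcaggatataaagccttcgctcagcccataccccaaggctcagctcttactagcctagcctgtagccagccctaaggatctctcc
Slc9a3: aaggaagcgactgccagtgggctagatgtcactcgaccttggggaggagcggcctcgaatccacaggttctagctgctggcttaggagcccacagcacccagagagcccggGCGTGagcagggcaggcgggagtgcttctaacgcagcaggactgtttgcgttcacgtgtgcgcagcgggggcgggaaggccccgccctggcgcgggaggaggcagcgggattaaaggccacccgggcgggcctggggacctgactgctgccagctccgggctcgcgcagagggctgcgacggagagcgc
Timp3: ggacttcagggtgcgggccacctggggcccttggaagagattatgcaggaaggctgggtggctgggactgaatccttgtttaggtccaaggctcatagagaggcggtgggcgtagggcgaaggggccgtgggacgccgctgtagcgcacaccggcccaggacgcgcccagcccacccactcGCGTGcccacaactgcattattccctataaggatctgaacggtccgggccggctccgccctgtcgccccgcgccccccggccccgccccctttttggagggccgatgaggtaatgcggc
Cyp1b1, Slc9a3 and Timp3 hold 1 match each, and Nqo1 holds none in its window. Over all tested genes with a window, 5946 of 10828 (54.9%) held the core on either strand. The share was 52.8% among the common falls (342 of 648) and 50.9% among the common rises (297 of 584). Among common genes over 2-fold in each condition it was 36.2% of the falls (38 of 105) and 40.9% of the rises (45 of 110). A match is a description of the letters in this window and not a binding site.

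The genotype main effect called 3503 of 14856 genes (23.6%), of which 1570 were higher and 1933 lower in KO, and 5347 had an unadjusted p under 0.05. Without WT stem replicate 1 it called 5011 genes, 2282 higher and 2729 lower. The fit counts the 12 libraries as separate samples, but the labels do not say whether stem and differentiated libraries of 1 genotype and number came from the same mouse or organoid line. With such libraries averaged, 3 values against 3, the main effect called 1965 genes, 906 higher and 1059 lower. The split moved with the processing. Of the calls 44.8% were rises here, 55.0% after quantile normalization (1735 rises, 1422 falls) and 58.0% with edgeR (1863 and 1350), which uses TMM scaling and also another model of the counts. The median over all tested genes was -0.007 here, 0.024 with edgeR and 0.006 after quantile normalization. Most called differences were small, with a median size of 0.42 (log2) among the called genes against 0.14 over all genes, and 632 (4.25%) were over 2-fold, 361 of them higher (2.43%) and 271 lower (1.82%). The main effect had the same sign in both conditions for 3281 of the 3503 genes and opposite signs for 216, and 407 were also called on the interaction of genotype and condition.

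The common genes numbered 1642 (11.1% of the genes tested), 772 higher (5.20%) and 870 lower in KO (5.86%), and 51 of them were also called on the interaction, which called 1292 genes in all (8.70%). Their median size was 0.51, 409 were over 2-fold on the main effect, and 294 were over 2-fold in each condition separately, 156 higher and 138 lower. All 6 KO libraries lay on 1 side of all 6 WT libraries, irrespective of condition, for 360 genes (2.42%), of which 219 were higher and 141 lower. Without WT stem replicate 1 the common count was 3119, and without WT stem replicate 2 or 3 it was 1688 and 1694. Taken alone, the stem cell condition called 976 genes (6.57%) and the differentiated condition 4103 (27.6%). The 534 genes called in both are 54.7% of the former and 13.0% of the latter, and 477 of them had the same sign. The count in the stem cell condition was 363 without KO stem replicate 1, 401 without KO stem replicate 2 and 495 without WT stem replicate 2. In the differentiated condition it was 2421 without KO differentiated replicate 1, 2557 without WT differentiated replicate 1 and 2233 without WT differentiated replicate 3. Without WT stem replicate 1 the stem cell condition called 1365 genes and the differentiated condition 5699. That library enters the latter contrast only through the shared estimate of the spread. The interaction count was 420, 459 and 794 without KO stem replicate 1, 2 or 3, 739 without KO differentiated replicate 2, and 524, 843 and 342 without WT differentiated replicate 1, 2 or 3. Across genes the differences in both conditions, which share no library, had a Pearson r of 0.48 and a Spearman coefficient of 0.26. Genes are not independent replicates, and these values describe the plot of one condition against the other.

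**Figure D1:**
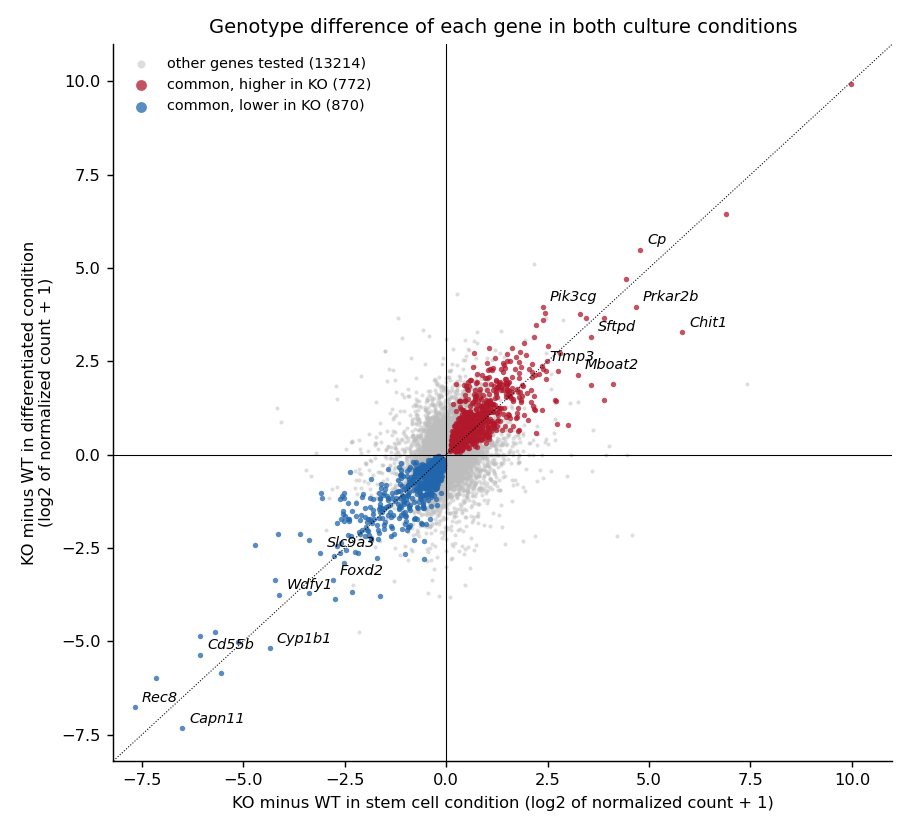
Difference KO minus WT of each of the 14856 tested genes in the stem cell condition (x axis) and in the differentiated condition (y axis), both as log2(normalized count + 1), with 3 libraries a group and the dotted line at equal change. The 772 common rises lie in the upper right and the 870 common falls in the lower left, and of the labelled genes Cp and Prkar2b lie far out in the former and Rec8 and Capn11 in the latter. The common rises beyond Cp in both conditions are the predicted genes Gm16867 (9.98 and 9.93) and Gm27177 (6.91 and 6.44).

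Predicted genes left aside, the largest common rises, ranked by the smaller of the changes in each condition, included Cp, Prkar2b, Atp6v1c2, Chit1, Sftpd, Pak3, Pstpip1, Pik3cg, Timp3, Bex4, Zfp987, Tmprss13 and Mboat2. Cp encodes ceruloplasmin, the copper-carrying ferroxidase. Its normalized counts were 1.63, 5.54 and 2.31 in WT stem, 166, 88.1 and 79.4 in KO stem, 3.05, 1.19 and 4.54 in WT differentiated and 382, 114 and 101 in KO differentiated. The main effect was 5.14 ± 0.40 (adjusted p = 1.74e-05). The WT groups held only 8 and 7 reads in all, on average under 3 reads a library, so that no fold is given. The lowest KO library was above the highest WT library by a wide margin.

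Sftpd, which encodes the secreted collectin surfactant protein D, read 160, 94.2 and 110 in WT stem and 2109, 1344 and 993 in KO stem. In the differentiated condition it read 20.6, 25.1 and 34.1 in WT and 356, 217 and 179 in KO. Its level was lower in the differentiated than in the stem cell libraries of either genotype, and the gap between the genotypes was 12.2-fold in the stem cell and 9.42-fold in the differentiated condition (main effect 3.36 ± 0.23, adjusted p = 7.09e-06). Chit1, the chitinase chitotriosidase, had 1 read over the 3 WT stem libraries and none in WT differentiated, against 73.3, 88.1 and 57.0 in KO stem and 10.7, 6.42 and 9.54 in KO differentiated (main effect 4.55 ± 0.28, adjusted p = 3.28e-06). Against a floor of 3 reads a library, Chit1 was at least 2.10-fold higher in KO differentiated.

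Timp3, an inhibitor of matrix metalloproteinases held in the extracellular matrix, read 2917, 1366 and 2497 in WT stem, 14739, 9797 and 9218 in KO stem, 212, 119 and 223 in WT differentiated and 1223, 667 and 978 in KO differentiated. The KO mean was 4.98-fold higher in the stem cell condition and 5.18-fold higher in the differentiated condition (main effect 2.36 ± 0.23, adjusted p = 9.54e-05).

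Prkar2b, a regulatory subunit of protein kinase A, read 17.9, 9.97 and 20.8 in WT stem, 307, 490 and 497 in KO stem, 19.8, 14.3 and 22.7 in WT differentiated and 183, 353 and 436 in KO differentiated (main effect 4.32 ± 0.25, adjusted p = 1.70e-06). Pik3cg, the catalytic subunit of phosphoinositide 3-kinase gamma, was 4.97-fold higher in KO in the stem cell condition and 15.8-fold higher in the differentiated condition (3.17 ± 0.28, adjusted p = 4.57e-05). Mboat2, a lysophospholipid acyltransferase, was 8.89-fold and 4.43-fold higher (2.69 ± 0.22, adjusted p = 2.40e-05). These 3 genes and Atp6v1c2, a vacuolar proton pump subunit (3.77 ± 0.30), lie on chromosome 12 within 20 Mb of Ahr.

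Pak3, a p21-activated kinase (2.75 ± 0.30), Pstpip1, a cytoskeletal adaptor (3.00 ± 0.26), and Tmprss13, a membrane serine protease (2.23 ± 0.29), also rose, with adjusted p of 0.000179, 4.45e-05 and 0.000536. The zinc finger gene Zfp987 had the largest adjusted p of these genes, with WT stem values from 11.4 to 199 and KO stem values from 222 to 616 (2.34 ± 0.64, adjusted p = 0.0221). It belongs to a family of near copies among which reads may be split, and its call was lost in 3 alternatives, with an adjusted p of 0.0945 at most.

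**Figure D2:**
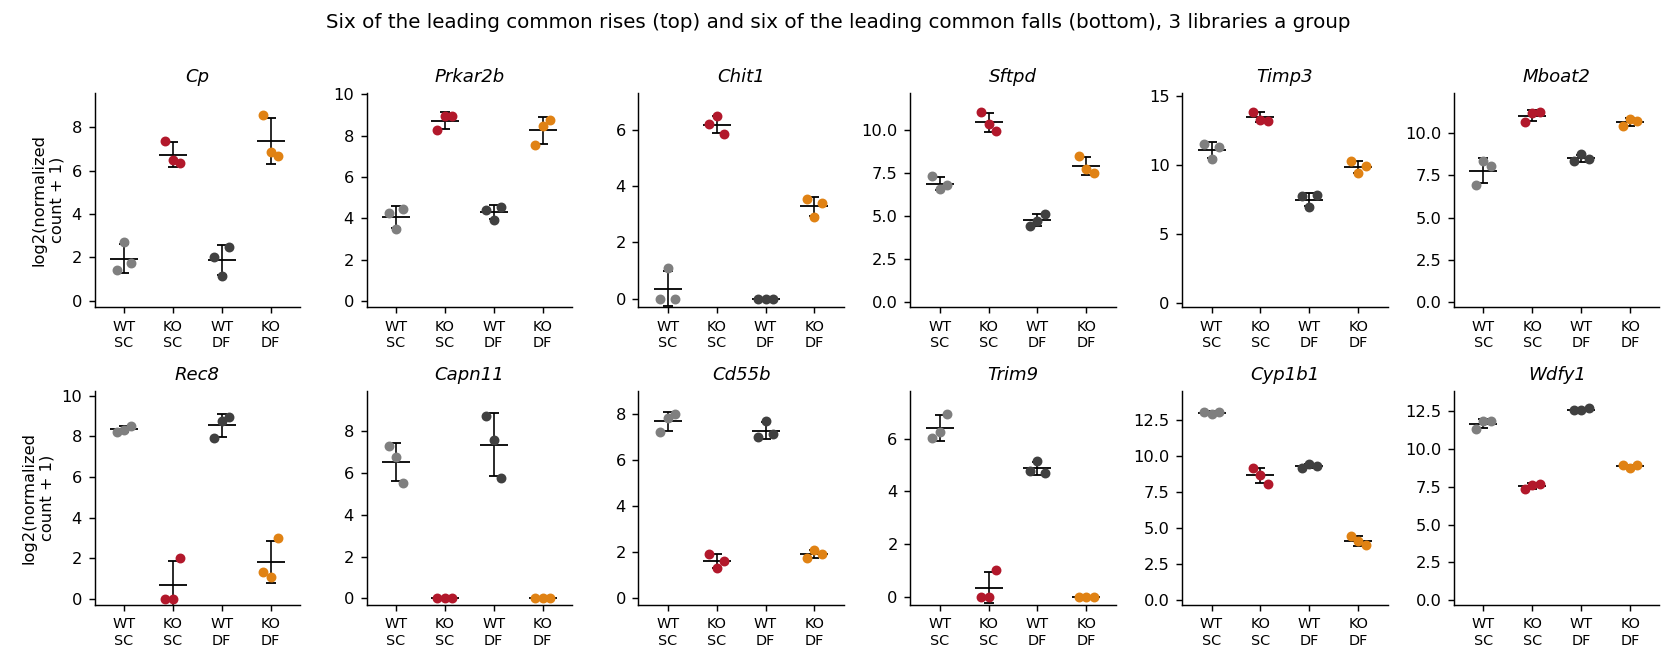
Level of 6 of the leading common rises (top) and 6 of the leading common falls (bottom) in each of the 12 libraries (points), as log2(normalized count + 1), with bars at the group mean and its SD (n = 3). SC is the stem cell and DF the differentiated condition. In every panel the KO points of a condition lie on 1 side of its WT points, as the definition of common requires. Capn11 is at 0 in all 6 KO libraries.

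By the same ranking the largest common falls were Rec8, Capn11, Cd55b, Slc15a2, Trim9, Gpr37l1, Cyp1b1, Wdfy1, Pde3a, Slc2a13, Foxd2, Slc8a1, Dpep1 and Slc9a3. Several were nearly silent in KO. Rec8, the meiotic cohesin subunit, read 300, 317 and 364 in WT stem and 0, 0 and 3.05 in KO stem, with 240, 437 and 497 in WT differentiated and 1.52, 1.07 and 6.82 in KO differentiated. Its KO mean was 125-fold lower in the differentiated condition, and its main effect was -7.22 ± 0.42 (adjusted p = 1.70e-06). Capn11, a calpain protease, was at 0 in all 6 KO libraries and between 43.9 and 418 in the 6 WT libraries. Against 3 reads a library this is at least 44.2-fold lower in KO stem and at least 86.9-fold lower in KO differentiated.

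Cd55b, a complement decay-accelerating factor that is close in sequence to Cd55 so that reads may be shared, read 147, 221 and 254 in WT stem and 126, 203 and 136 in WT differentiated. Its 6 KO values lay between 1.47 and 3.21 (main effect -5.71 ± 0.20, adjusted p = 2.25e-08). Trim9, a brain-enriched ubiquitin ligase, had 1 read in 1 of 6 KO libraries and 25.0 to 122 normalized counts in WT (-5.47 ± 0.27, adjusted p = 5.19e-07). Gpr37l1, an orphan G protein-coupled receptor, was 67.2-fold lower in KO stem and 28.0-fold lower in KO differentiated. Neither gene showed any overlap between the 6 KO and the 6 WT libraries.

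Wdfy1, an adaptor that binds endosomal phosphoinositides, had the smallest p-value of all common genes. It read 2565, 3788 and 3661 in WT stem, 162, 201 and 205 in KO stem, 6216, 6065 and 6664 in WT differentiated and 492, 427 and 484 in KO differentiated (-3.94 ± 0.10, adjusted p = 3.34e-09). It was 17.7-fold lower in the stem cell and 13.5-fold lower in the differentiated condition. Foxd2, a forkhead transcription factor, fell from 357, 324 and 267 to 29.1, 57.2 and 51.9 in the stem cell condition and from 683, 596 and 652 to 31.2, 97.3 and 77.0 in the differentiated condition (-3.08 ± 0.26, adjusted p = 3.07e-05).

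Dpep1, a membrane dipeptidase, read 39.1, 36.6 and 55.4 in WT stem, 4.31, 7.34 and 5.09 in KO stem, 1166, 594 and 1379 in WT differentiated and 83.0, 170 and 240 in KO differentiated. It was 7.83-fold and 6.37-fold lower in KO (-2.74 ± 0.28, adjusted p = 0.000127). For the peptide transporter Slc15a2 the KO libraries themselves were split. Replicate 1 read 27.5 in KO stem and 109 in KO differentiated, and the other 4 KO libraries 2.14 or less, against 100 to 271 in WT (-5.07 ± 1.02, adjusted p = 0.00542). The phosphodiesterase Pde3a was scattered in both genotypes, with 6.65 to 58.9 in WT stem, 1.02 to 4.40 in KO stem, 65.7 to 254 in WT differentiated and 1.52 to 43.8 in KO differentiated (-3.54 ± 0.73, adjusted p = 0.00604). Its highest KO value was in KO differentiated replicate 2. The ion exchanger Slc8a1 (-3.30 ± 0.43) and the inositol transporter Slc2a13 (-3.80 ± 0.36) fell as well.

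Among the common genes other than predicted ones, the 6 smallest p-values belonged to Wdfy1, Cyp1b1, Cd55b and 3 genes with smaller and very even changes. The predicted genes Gm6472 (2.71, adjusted p = 1.11e-08) and Gm16867 (9.95, adjusted p = 1.22e-08) also lay among the lowest. Rps7, a protein of the small ribosomal subunit, read 36474, 38449 and 40669 in WT stem, 15722, 17206 and 16195 in KO stem, 21174, 21215 and 21017 in WT differentiated and 10247, 10731 and 10478 in KO differentiated. It was 2.35-fold and 2.02-fold lower in KO (-1.12 ± 0.04, adjusted p = 1.92e-08), and near-identical copies of ribosomal protein genes make its count uncertain. Snapc1, a subunit of the small nuclear RNA activating complex, read 915 to 1136 in WT stem, 362 to 387 in KO stem, 857 to 956 in WT differentiated and 325 to 357 in KO differentiated (-1.44 ± 0.07, adjusted p = 2.80e-07). Tmem9, a lysosomal transmembrane protein, read 1784 to 1896 in WT stem, 3221 to 3578 in KO stem, 854 to 929 in WT differentiated and 1981 to 2250 in KO differentiated (1.07 ± 0.05, adjusted p = 2.21e-07).

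Genes of the absorptive colonocyte, the surface cell that takes up salt and water, were called lower in KO or not called. Of 34 tested, 21 fell and none rose, with a median of -0.75 (-0.53 in the stem cell and -1.07 in the differentiated condition), and 14 of the 21 were common. Slc9a3, the apical sodium/proton exchanger, read 35.9, 23.3 and 36.9 in WT stem, 4.31, 2.20 and 2.04 in KO stem, 490, 281 and 616 in WT differentiated and 41.1, 103 and 81.1 in KO differentiated (-2.88 ± 0.28, adjusted p = 7.81e-05). Guca2a, the precursor of the fluid-regulating peptide guanylin, was 16.9-fold lower in the stem cell and 4.03-fold lower in the differentiated condition (-2.87 ± 0.29, adjusted p = 0.000119). Car1, a cytosolic carbonic anhydrase, read 266, 78.7 and 175 in WT stem and 19.4, 10.3 and 13.2 in KO stem. In the differentiated condition it read 90679, 60548 and 102119 in WT and 9858, 17097 and 28609 in KO (-2.84 ± 0.32, adjusted p = 0.000217). The membrane mucin Muc3 fell by 2.43 ± 0.43 (log2, adjusted p = 0.00286). In Slc9a3, Guca2a and Car1 the WT level was higher after Wnt-3A withdrawal, and the KO libraries lay under the WT libraries at the low levels of the stem cell condition as well.

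Brush border genes, which build the apical microvilli, held 14 falls and 1 rise among 26 tested (median -0.31). Myo1a, the microvillar myosin, fell by 1.91 ± 0.20 (log2, adjusted p = 0.000134), from 959 to 1146 in WT stem against 177 to 272 in KO stem and from 18328 to 24267 in WT differentiated against 4508 to 11209 in KO differentiated. The protocadherin Cdhr5 (-0.73 ± 0.16) and its partner Anks4b (-0.71 ± 0.17) were called with overlapping stem cell libraries. Of the brush border list 3 falls were common, and its median was -0.06 in the stem cell condition against -0.44 in the differentiated condition. Of the 10 epithelial identity genes 7 fell and none rose (median -0.35), among them Lgals4, a galectin (-0.47 ± 0.08, adjusted p = 0.00293), and Gpa33, a junctional surface antigen (-0.38 ± 0.07, adjusted p = 0.00303).

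Of 39 intestinal transcription factors, 17 fell and 3 rose (median -0.28), and 9 of the falls were common. Cdx1, the caudal homeobox factor of intestinal identity, read 4320, 4841 and 3604 in WT stem, 612, 703 and 924 in KO stem, 5796, 4705 and 5663 in WT differentiated and 1783, 3031 and 3360 in KO differentiated. All 6 KO values were below all 6 WT values, and the gap was 5.70-fold in the stem cell and 1.98-fold in the differentiated condition (-1.77 ± 0.16, adjusted p = 4.57e-05). That gap differed between the conditions (interaction adjusted p = 0.0204). Nr1i2, the pregnane X receptor, fell by 1.84 ± 0.22 (adjusted p = 0.000298), Nr1h4, the bile acid receptor FXR, by 1.41 ± 0.21 (adjusted p = 0.00124) and the cut-homeobox factor Onecut2 by 1.56 ± 0.38 (adjusted p = 0.0134). Cdx2, the paralogue of Cdx1, had a smaller difference of -0.46 ± 0.11 (adjusted p = 0.012) and overlapped in the stem cell condition.

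**Figure D3:**
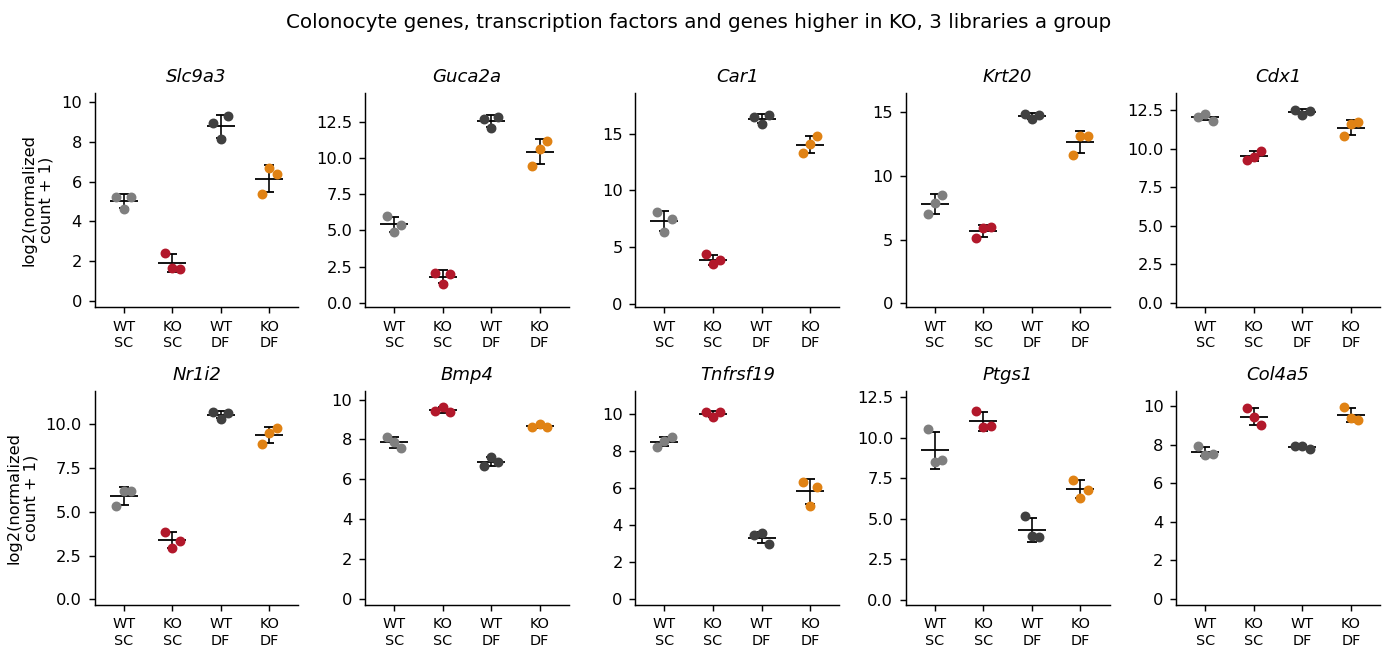
Level of 4 colonocyte genes, 2 transcription factors and 4 genes higher in KO in each of the 12 libraries (points), as log2(normalized count + 1), with bars at the group mean and its SD (n = 3). SC is the stem cell and DF the differentiated condition. The genes shown are common, so in each panel the KO points lie on 1 side of the WT points of the same condition. They are lower for Slc9a3 to Nr1i2 and higher for Bmp4 to Col4a5.

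Conjugating enzymes, which attach sugar or sulfate to drugs and hormones, showed 9 falls and no rise among 14 tested glucuronosyltransferase and sulfotransferase genes (median -1.21). Ugt1a7c read 2483, 3556 and 3330 in WT stem, 156, 119 and 288 in KO stem, 3827, 3451 and 4565 in WT differentiated and 545, 996 and 1334 in KO differentiated (-3.13 ± 0.24, adjusted p = 1.76e-05). The groups did not overlap, and the difference was larger in the stem cell condition (16.7-fold) than in the differentiated condition (4.12-fold, interaction adjusted p = 0.0313). Ugt1a1 fell by 2.25 ± 0.35 (adjusted p = 0.00142) and Sult1b1 by 1.81 ± 0.31 (adjusted p = 0.00238). The last exons are shared between Ugt1a genes, so the counts of single members are uncertain.

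Cytochrome P450 and carboxylesterase genes, oxidising and ester-cleaving enzymes, held 11 falls and 2 rises among 29 tested (median -0.40). Cyp2c55, which read 9.97 to 43.9 in WT stem, 2.20 to 4.07 in KO stem, 4153 to 10392 in WT differentiated and 541 to 2092 in KO differentiated, fell by 2.63 ± 0.40 (adjusted p = 0.00123). Cyp2d26 fell by 2.25 ± 0.33 (adjusted p = 0.00103). Ces1d and Ces1e are near copies of each other and are uncertain, at -1.98 ± 0.40 and -1.84 ± 0.30. In the efflux and uptake transporter list 3 of 21 rose and 6 fell (median -0.30), and the multidrug exporter Abcb1b rose by 1.22 ± 0.20 (adjusted p = 0.00181), from 330 to 774 in WT stem against 780 to 1132 in KO stem and from 215 to 263 against 583 to 857 in the differentiated condition. The organic anion carriers Slco2b1 (-1.23 ± 0.31) and Slco2a1 (-1.09 ± 0.28) were called lower. Slco2b1 overlapped in the differentiated condition and Slco2a1 in the stem cell condition. No fall on this list was common, and its median was 0.05 in the stem cell against -0.57 in the differentiated condition.

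Glutathione transferases and synthesis genes moved in both directions, 10 up and 8 down of 28 (median 0.12). Gstm2 rose by 1.27 ± 0.16 (adjusted p = 0.000373), with 246 to 282 in WT stem against 526 to 1094 in KO stem and 253 to 277 against 440 to 651 in the differentiated condition. Gstm7 rose by 0.92 ± 0.15 (adjusted p = 0.00196), while Gstm3 fell by 1.21 ± 0.21 (adjusted p = 0.00245). Gstm genes lie side by side and are close in sequence, so their counts are uncertain. Among NRF2 antioxidant genes, 2 of 23 rose and 8 fell (median -0.11). Ephx1, microsomal epoxide hydrolase, rose by 0.72 ± 0.08 (adjusted p = 0.000133). The disulfide reductant thioredoxin Txn1 (-0.55 ± 0.09), the peroxide-reducing Prdx6 (-0.52 ± 0.14) and sulfiredoxin Srxn1 (-0.48 ± 0.08), which repairs over-oxidised peroxiredoxins, were called lower, and all were also called on the interaction, with log2 differences of -0.88, -1.14 and -0.95 in the differentiated condition against -0.22, 0.09 and -0.01 in the stem cell condition.

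Of the gene lists used here, cholesterol synthesis had the highest share of called members, 19 falls and no rise among 26 (73.1%, median -0.34), of which 15 were common and none was called on the interaction. The changes were small. Insig1, the sterol-sensing anchor of SREBP, read 6282, 5504 and 5862 in WT stem and 4936, 4240 and 4619 in KO stem. In the differentiated condition it read 10033, 9252 and 11963 in WT and 3709, 6079 and 5938 in KO (-0.69 ± 0.12, adjusted p = 0.0023). Lss, lanosterol synthase (-0.54 ± 0.13), Msmo1, a sterol oxidase (-0.53 ± 0.14), and Cyp51, lanosterol demethylase (-0.51 ± 0.13), also fell without overlap in either condition. With quantile normalization the list held 10 falls and 2 rises, and with edgeR 13 falls and no rise.

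Of 37 nuclear-encoded oxidative phosphorylation genes tested, 12 fell and none rose, with a median of -0.13 in each condition. Succinate dehydrogenase subunits Sdha (-0.22 ± 0.04, adjusted p = 0.00551) and Sdhb (-0.22 ± 0.05, adjusted p = 0.0156) were among the 6 that were common. This count was 5 with edgeR, 2 with quantile normalization and 17 without WT stem replicate 1, with 1 rise. Fatty acid oxidation and lipid handling genes held 4 rises and 13 falls of 39 (median -0.23). Angptl4, an inhibitor of lipoprotein lipase, rose by 1.01 ± 0.12 (adjusted p = 0.000344) and the kinase Pdk4, which restrains pyruvate oxidation, by 1.49 ± 0.36 (adjusted p = 0.0134). The lipid-binding protein Fabp2 was called lower (-1.22 ± 0.27), with a difference of -3.03 in the differentiated condition and 0.58 in the stem cell condition. Glycolysis and hypoxia genes held 1 rise and 2 falls of 31 (9.68%, median -0.19), and 1 rise and 22 falls without WT stem replicate 1.

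Among goblet and deep crypt secretory genes, 1 of 26 rose and 6 fell (median -0.43), and 1 fall was common. The share called was 26.9%, near the 23.6% of all tested genes. Sytl2, a granule-docking protein, fell by 1.64 ± 0.22 (adjusted p = 0.000677), with 117 to 234 in WT stem against 29.1 to 67.5 in KO stem and 2074 to 2170 against 629 to 939 in the differentiated condition. The trefoil peptide Tff3 (-1.25 ± 0.33, adjusted p = 0.0195) overlapped in the differentiated condition, at 1107 to 1707 in WT and 566 to 1580 in KO. Muc2, the secreted gel-forming mucin, did not pass the test (-0.80 ± 0.32, adjusted p = 0.0959). Enteroendocrine genes held 3 falls and no rise among 11 (27.3% called, also near that share, median -0.56). Chgb, a granule protein, was at -1.60 ± 0.42 (adjusted p = 0.0194), and the prohormone-processing enzyme Cpe at -0.87 ± 0.14 (adjusted p = 0.00203).

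The tuft cell list held 5 rises and no fall among 12 (41.7% called, median 0.45), and 3 of the rises were common. Ptgs1, cyclooxygenase 1, read 1458, 362 and 397 in WT stem, 3228, 1583 and 1699 in KO stem, 35.1, 14.3 and 13.6 in WT differentiated and 165, 75.9 and 109 in KO differentiated (2.13 ± 0.38, adjusted p = 0.003). Alox5, 5-lipoxygenase, rose by 1.90 ± 0.31 (adjusted p = 0.00181), and all 6 KO libraries (70.2 to 302) were above all 6 WT libraries (19.8 to 55.4). Both enzymes act on arachidonate and are not particular to tuft cells. The kinase Dclk1, a tuft cell marker, rose by 0.83 ± 0.26 (adjusted p = 0.0373), a call lost in 12 alternatives. Of 21 prostaglandin and arachidonate genes, 3 rose, these 2 included, and 8 fell (median -0.08), led by the phospholipase Pla2g10 (-2.06 ± 0.43, adjusted p = 0.00624) and the aldo-keto reductase Akr1c19 (-1.18 ± 0.23, adjusted p = 0.00441).

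Stem cell and Wnt target genes were called higher more often than lower. Of 19 stem cell genes 6 rose and 1 fell (median 0.18), and of 20 Wnt target genes 7 rose and 2 fell (median 0.17). In the stem cell condition the medians were -0.04 and 0.06, against 0.38 and 0.34 in the differentiated condition. No Wnt target rise was common. Tnfrsf19, a TNF receptor family member of crypt base cells, read 300, 377 and 433 in WT stem, 1113, 904 and 1088 in KO stem, 9.92, 10.7 and 6.81 in WT differentiated and 80.0, 32.1 and 66.8 in KO differentiated (2.00 ± 0.21, adjusted p = 0.000143). It was the 1 common rise on the stem cell list. Bmi1, a polycomb protein, fell in all 6 KO libraries to 1662 to 2297, from 2543 to 3364 in WT (-0.57 ± 0.05, adjusted p = 2.72e-05). For Axin2, a feedback inhibitor of Wnt signalling, the main effect of 0.36 ± 0.09 (adjusted p = 0.0195) combined 0.01 in the stem cell and 0.70 in the differentiated condition. Lef1, a Wnt effector, rose by 1.49 ± 0.35 (adjusted p = 0.0109) and Sp5 by 0.77 ± 0.15 (adjusted p = 0.00503), both with overlapping stem cell libraries. Lgr5, the receptor that marks crypt stem cells, did not pass (0.61 ± 0.22, adjusted p = 0.0709), with 2530 to 7490 in WT stem against 4308 to 7264 in KO stem. The value of 2530 was in WT stem replicate 1. In the differentiated condition Lgr5 read 1832, 1940 and 1833 in WT and 3994, 3544 and 3825 in KO, without overlap.

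Of 40 cell cycle genes 3 rose and 3 fell on the main effect (15.0%), while 19 were called on the interaction, with medians of -0.24 in the stem cell and 0.44 in the differentiated condition. Common members were Cdkn2a, a cell cycle inhibitor locus, which rose by 0.70 ± 0.12 (adjusted p = 0.00271), Cdkn1c, a further inhibitor, which fell by 0.82 ± 0.09 (adjusted p = 0.00014), E2f2 (-0.83 ± 0.21, adjusted p = 0.0153) and the replication clamp Pcna (-0.44 ± 0.07, adjusted p = 0.00129). Without WT stem replicate 1 the list held 13 rises and 3 falls. Mki67, the proliferation antigen, was at -0.09 ± 0.17 (adjusted p = 0.735). Of 32 amino acid and unfolded protein stress genes 4 rose and 1 fell (median 0.04), and Phgdh, the entry enzyme of serine synthesis, read 1043 to 1205 in WT and 1976 to 2690 in KO differentiated with overlapping stem cell libraries (0.47 ± 0.07, adjusted p = 0.00128).

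Notch, BMP and Hedgehog genes held 7 rises and 3 falls among 30 (median 0.06). Bmp4, a secreted BMP ligand, read 280, 233 and 188 in WT stem, 691, 787 and 658 in KO stem, 99.2, 137 and 116 in WT differentiated and 392, 433 and 396 in KO differentiated. All 6 KO libraries were above all 6 WT libraries, at 3.05-fold in the stem cell and 3.47-fold in the differentiated condition (1.71 ± 0.11, adjusted p = 4.89e-06). Notch3, a Notch receptor, rose by 0.84 ± 0.14 (adjusted p = 0.00229), and Ihh, the Hedgehog ligand of colonocytes, fell by 1.93 ± 0.26 (adjusted p = 0.000656), from 21.1 to 31.0 in WT stem against 2.94 to 8.14 in KO stem and from 1267 to 1908 against 309 to 798 in the differentiated condition. Of 21 EGF receptor and ligand genes 5 rose and 3 fell (median 0.07), with Lrig3 (-0.61 ± 0.15, adjusted p = 0.0154) and the feedback inhibitor Spry1 (0.33 ± 0.08, adjusted p = 0.0136) common.

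YAP target genes, which respond to the transcriptional coactivator of the Hippo pathway, held 12 rises and 1 fall among 26 (median 0.24, and 0.22 in each condition). The GTPase-activating protein Dlc1 rose by 1.30 ± 0.21 (adjusted p = 0.00195), the angiomotin Amotl1 by 0.79 ± 0.15 (adjusted p = 0.00347) and the exchange factor Arhgef17 by 0.77 ± 0.10 (adjusted p = 0.000539). Arhgef17 read 3189 to 4827 in the 6 WT and 5792 to 8535 in the 6 KO libraries. Ankrd1, a nuclear ankyrin repeat protein, was called (0.82 ± 0.25, adjusted p = 0.0329) with overlap in the stem cell condition, and its call was lost in 8 alternatives. Fetal-like and regenerative genes held 9 rises and 5 falls of 28 (median 0.18). Spp1, which encodes osteopontin, read 13.0, 9.97 and 12.7 in WT stem, 42.6, 33.8 and 36.6 in KO stem, 117, 112 and 109 in WT differentiated and 1159, 463 and 496 in KO differentiated (2.04 ± 0.21, adjusted p = 0.000119). Krt4, a keratin of stratified epithelia, rose by 1.08 ± 0.13 (adjusted p = 0.000373).

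Basement membrane and integrin genes held 8 rises and 5 falls of 34 (median 0.12). Col4a5, a type IV collagen chain, read 177 to 244 in the 6 WT and 519 to 996 in the 6 KO libraries (1.75 ± 0.16, adjusted p = 5.72e-05), and Itgb8, an integrin beta chain, rose by 1.63 ± 0.16 (adjusted p = 7.80e-05). Among keratin, mucin and junction genes 6 of 41 rose, all of them common, and 12 fell (median -0.15). Cldn2, a pore-forming claudin, read 523 to 1696 in WT and 2056 to 4272 in KO (1.63 ± 0.23, adjusted p = 0.000807), and the membrane mucin Muc20 rose by 1.65 ± 0.15 (adjusted p = 6.00e-05). Krt20, the keratin of mature colonocytes, fell by 2.10 ± 0.31 (adjusted p = 0.00101), with 22425 to 30197 in WT differentiated against 3248 to 9106 in KO differentiated. Of 24 Hox and positional identity genes 4 rose and 1 fell (20.8% called against 23.6% of all tested genes, median 0.10). Hoxd8, which marks axial position, rose by 0.66 ± 0.15 (adjusted p = 0.00938). Retinoic acid genes held 2 rises and 7 falls of 23 (median -0.24), with the dehydrogenase Adh1 at -1.98 ± 0.55 (adjusted p = 0.0236) and the retinol receptor Stra6 at 1.07 ± 0.27 (adjusted p = 0.0173). Both overlapped in the stem cell condition. On this list 2 falls and no rise were common.

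Antimicrobial and epithelial defence genes moved in both directions, 10 up and 12 down of 46 (median -0.09), and 6 rises and 9 falls were common. Besides Chit1 and Sftpd, the beta-defensin Defb1 rose, from 6.52, 13.3 and 20.8 in WT stem against 201, 286 and 128 in KO stem, and from 3.81, 7.17 and 9.09 against 19.0, 25.7 and 14.3 in the differentiated condition (2.67 ± 0.31, adjusted p = 0.000282). Il18, an epithelial interleukin of barrier defence, read 153, 104 and 105 in WT stem, 69.5, 62.4 and 56.0 in KO stem, 2261, 1842 and 1944 in WT differentiated and 842, 952 and 1232 in KO differentiated (-0.97 ± 0.13, adjusted p = 0.000536). The KO libraries were lower in each condition without overlap.

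Interferon response genes held 5 rises and 10 falls of 47 on the main effect (median -0.09), but 25 of the 47 were called on the interaction, with medians of 0.29 in the stem cell and -0.41 in the differentiated condition. Only Ly6e, a GPI-anchored surface protein, was common among them (0.44 ± 0.06, adjusted p = 0.000485). Of 26 MHC and antigen presentation genes 3 rose and 9 fell (median -0.03), and 1 rise and 2 falls were common. Among the falls, H2-T3 read 62.1 to 127 in WT differentiated and 8.38 to 35.4 in KO differentiated, with 1.15 at most in the stem cell condition. The class I genes H2-Q6 (0.69 ± 0.17, adjusted p = 0.0124) and H2-Q7 (0.58 ± 0.15, adjusted p = 0.0152) rose and are close copies, so their counts may not be separable. H2-Q6 overlapped in the differentiated condition.

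Few of the fibroblast and immune marker genes had levels high enough to be tested. Of 3 fibroblast and muscle markers tested, Pdgfrb, a platelet-derived growth factor receptor, fell, from 55.4 to 95.4 in the 6 WT libraries against 11.4 to 32.0 in the 6 KO libraries (-2.12 ± 0.24, adjusted p = 0.000188). Vim, an intermediate filament of mesenchymal cells, read 13196 in WT stem replicate 1, 356 in KO stem replicate 3 and 8.08 to 40.4 elsewhere, and its main effect was 0.03 ± 1.57. None of the 4 immune, blood and endothelial markers tested was called by limma, and edgeR called 1.

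**Figure D4:**
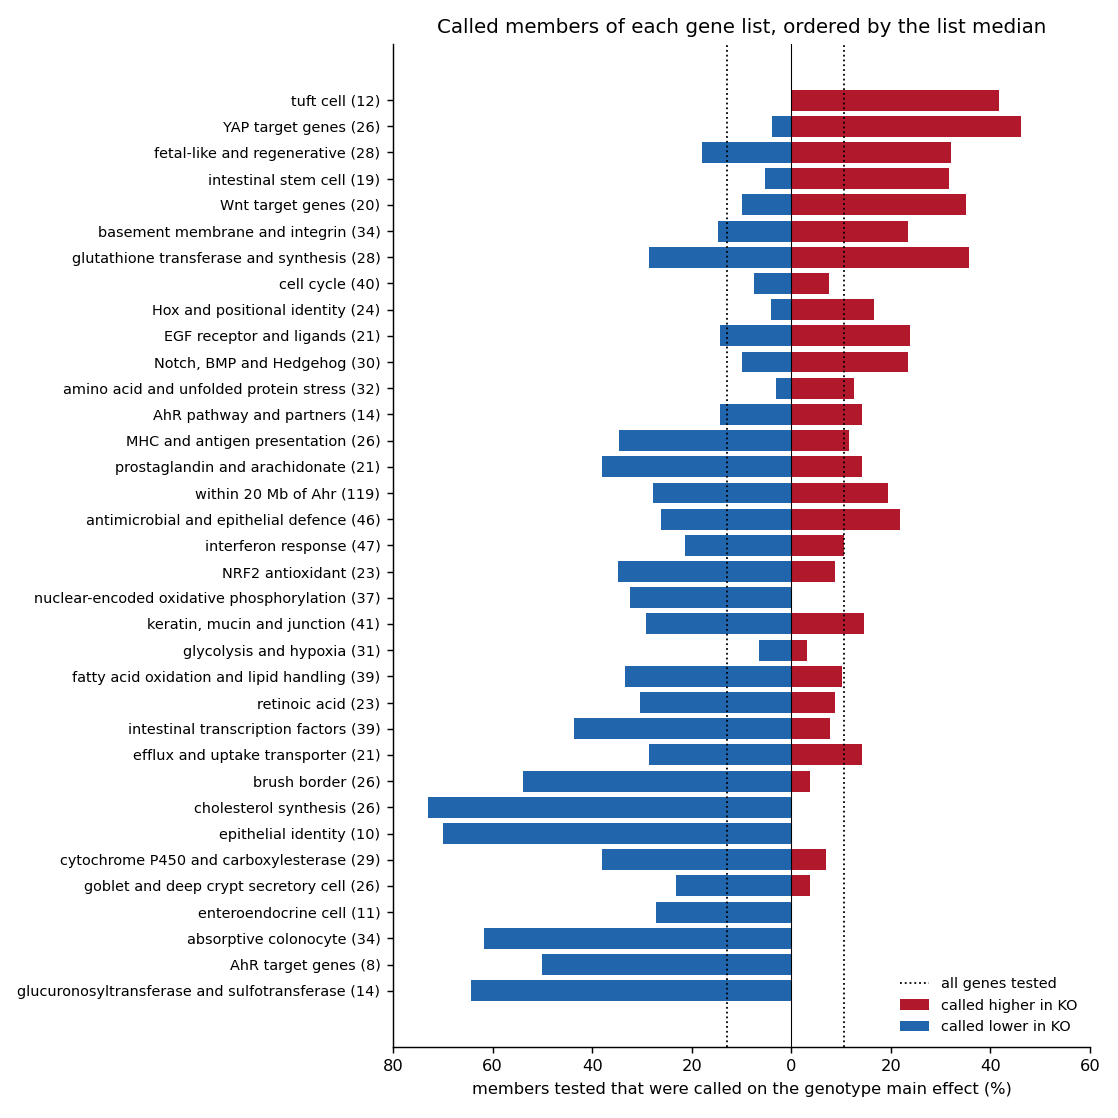
Share of the tested members (number in brackets) of each list with at least 8 tested members that were called higher (right) or lower (left) in KO on the genotype main effect, in percent, with the lists ordered by their median. Dotted lines mark the 10.6% and 13.0% of all tested genes called higher and lower. Tuft cell and YAP target genes extend farthest to the right, and cholesterol synthesis, epithelial identity and conjugating enzymes farthest to the left.

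Genes of chromosome 12, which carries Ahr, were called more often than genes elsewhere. Of 501 tested on chromosome 12, 165 were called (32.9%), against 23.3% on the other chromosomes, and 22 (4.39%) were common and over 2-fold in each condition, against 1.89%. Within 20 Mb of Ahr 47.1% of 119 genes were called, 23 higher and 33 lower. By distance, 37.1% were called within 5 Mb, 26.7% of 15 genes at 5 to 10 Mb, 56.5% at 10 to 20 Mb, 35.1% at 20 to 40 Mb and 25.5% at 40 to 90 Mb. Prkar2b, Pik3cg, Atp6v1c2, Mboat2 and Rps7 lie within 20 Mb of Ahr and Snapc1 and Trim9 between 20 and 40 Mb, and all were common and over 2-fold in each condition. The predicted gene 1700030C10Rik, within 20 Mb, read 150 to 241 in the 6 WT and 0 to 4.57 in the 6 KO libraries (-6.57 ± 0.30, adjusted p = 2.46e-07). Differences carried along with the KO allele on chromosome 12 and differences that follow from AhR loss cannot be told apart in this design.

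**Figure D5:**
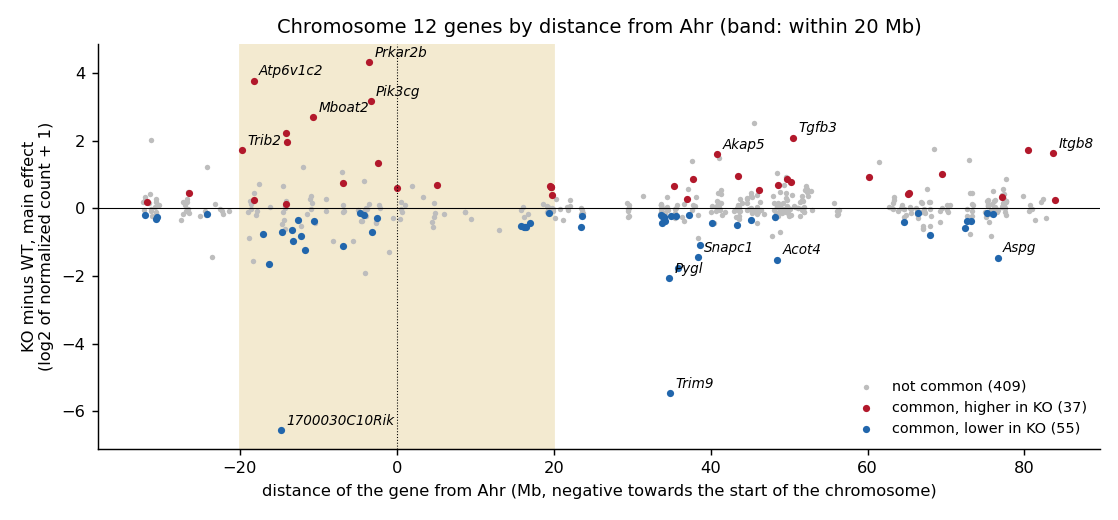
Main effect of genotype (log2, KO minus WT) of the 501 tested chromosome 12 genes by distance from Ahr in Mb, with common rises and falls coloured and the band marking 20 Mb on either side of Ahr. Prkar2b, Pik3cg, Atp6v1c2 and Mboat2 stand out above 0 and 1700030C10Rik below 0 inside the band, and Trim9 below 0 outside it.

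Common differences over 2-fold in each condition also lay side by side elsewhere. Windows of 5 Mb with at least 10 tested genes numbered 425, of which 242 held no such gene and 21 held 3 or more. The highest counts, 5 each, were in 2 windows of chromosome 12 and in 1 of chromosome 17. On chromosome 12 these were 5 of 27 tested genes (18.5%) at 20 to 25 Mb and 5 of 28 (17.9%) at 70 to 75 Mb. On chromosome 17 they were 5 of 110 (4.55%) at 30 to 35 Mb, namely Btnl4, Btnl5-ps, Btnl6, Cyp4f14 and Cyp4f40. The share on chromosomes other than 12 was 1.89%. A window of chromosome X (135 to 140 Mb) held 4 of 24 (16.7%), Bex4 and Cldn2 among them. Some windows held neighbouring copies of 1 family, such as Ugt1a1, Ugt1a6a and Ugt1a7c on chromosome 1. These windows were looked at after the values were seen and carry no test.

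Not every genotype difference was common. Of the genes called in each condition separately, 57 had opposite signs and were also called on the interaction, and 2 of these 57 were called on the main effect. Ifit1bl1, an interferon-induced gene with close copies, read 197, 253 and 252 in WT stem against 596, 440 and 392 in KO stem, and 9246, 8225 and 9333 in WT differentiated against 2196, 4311 and 4992 in KO differentiated, so that its main effect was -0.15 ± 0.18. Ly6d, a GPI-anchored surface protein, read 1738 to 3668 in WT stem and 4448 to 7149 in KO stem, but 1886 to 2199 and 964 to 1142 in the differentiated condition (main effect 0.16 ± 0.17). Sox6, a transcription factor, and Ifit3b had log2 differences of 1.07 and 1.13 in the stem cell and -0.86 and -0.92 in the differentiated condition. For these genes a main effect near 0 averaged opposite differences.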

How the data were processed

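RNA-seq of 12 organoid libraries was analysed from 1 deposited table of normalized counts (signal), which the authors made from reads with RSEM 1.2.11, Bowtie2 and DESeq2 1.18.1 on GRCm38, as the submitters' processing notes name them. All values were whole multiples of a step per library (100% within 0.05 reads), so whole reads were recovered, 25057534 to 99023592 per library, and counting error alone sets the floor of 3 reads. Names and positions came from GENCODE annotation of GRCm38 (48435 of 48795 identifiers, 99.3%). No deposited column was left unused.

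limma 3.58.1 (R 4.3.3, trended variance) was fitted to log2(normalized count + 1), which understates changes of low genes, with 4 group means over 14856 genes (value of at least 10 in at least 3 libraries). The main effect was the mean of both within-condition contrasts, and p-values were adjusted by Benjamini-Hochberg at 0.05. The fit was tested on simulated data. Alternatives were edgeR 4.0.16 and DESeq2 1.42.0 on the recovered reads, other pseudocounts, filters and scalings, blocks, and leaving out libraries. Named genes were the 14 largest common rises and 14 largest falls with a group mean of at least 50, ranked by the smaller change, the 6 smallest p-values, 4 genes with opposite changes, up to 4 called members of each of 36 lists, and a fixed panel. Predicted genes were not named from the rankings, and a few genes that the rule names are not reported here. Members, lists and rule were chosen with earlier results of these data known.

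Same-numbered libraries were compared by the correlation of their deviations from the group means. Between genotypes it was -0.0511 to 0.157 within a condition and 0.0223 to 0.201 across conditions, not over 0.1 in every pair, so numbers were not taken to pair WT with KO. Between conditions it was 0.191 to 0.286 in KO and 0.0552 to 0.145 in WT. For unlike numbers between conditions it was -0.211 to -0.00925 in KO and -0.103 to 0.0111 in WT. The p-values given for single genes do not allow for such a link between libraries of 1 genotype and number.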

Additional observations from a re-analysis of the deposited data

Results flagged for a closer look

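Of the 172 genes named by the rule, 23 were called on the interaction (limma, adjusted p under 0.05), against 8.70% of all tested genes. Their KO minus WT difference itself differed between the culture conditions, so that the main effect averages unequal changes. Ifit1bl1, Ly6d, Ifit3b and Sox6 were named because of such a call with opposite signs, so their calls are no further support. Values are the log2 difference in the differentiated condition minus that in the stem cell condition. Among genes higher in KO in both conditions, it was -2.55 for Chit1 and -2.43 for Defb1, with the larger rise in the stem cell condition. Among genes lower in both, it was 2.01 for Ugt1a7c and 1.49 for Cdx1, with the larger fall in the stem cell condition, and -0.66 for Txn1 and -0.63 for Cdkn1c, with the larger fall in the differentiated condition.

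The difference changed sign for Ifit1bl1 (-2.31), Ly6d (-2.23), Ifit3b (-2.06) and Sox6 (-1.93), higher in KO stem and lower in KO differentiated. Genes with a fall in the differentiated condition and no called difference in the stem cell condition were Ces1d (-3.60), Fabp2 (-3.62), Ifit2 (-1.96), Prdx6 (-1.23), Cdhr2 (-1.18) and Srxn1 (-0.94). Genes with a rise in the differentiated condition and no called difference in the stem cell condition were Smoc2 (1.79), Phgdh (1.10), Etv5 (0.90), Slc7a5 (0.88), Shmt2 (0.78) and Axin2 (0.69). The scavenger receptor Cd36 (-3.80) rose in the stem cell condition, with 0, 3.32 and 4.62 in WT stem against 37.7, 66.0 and 38.7 in KO stem, and had 3 reads or fewer per group in the differentiated condition.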

How the results depend on the processing

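Of the counts of called genes, that of the main effect was 2519 to 5011 with single libraries or WT stem replicate 1 and KO stem replicate 3 together left out, the last chosen after seeing the data. The count of common genes was 1498 to 3372, that of the stem cell condition 363 to 1497, that of the differentiated condition 2233 to 5699 and that of the interaction 342 to 1603. Averaging libraries of 1 genotype and number (3 against 3) called 1965 genes on the main effect, of which 1951 were also called in the fit reported, and 1232 common genes. DESeq2 called 1984 in the stem cell condition and 2442 on the interaction, and testing without a filter called 750 on the interaction. Ahr stayed higher in KO in every alternative (0.56 to 0.65).

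The replicate number was not taken to pair WT with KO. With the replicate block the main effect called 4213 genes, the stem cell condition 1486 and the interaction 2141. With genotype and number as a random block the main effect called 2886 and the interaction 2170.

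Genes that were not called changed the sign of their main effect in some alternatives, and the cause was not tested. Arnt was 0.06 after quantile normalization and 0.03 with edgeR. With libraries left out, Arnt was -0.08 to 0.03, Csf1r -0.11 to 0.02, Ifit1bl1 -0.26 to 0.03, Ifit3b -0.05 to 0.28, Sox6 -0.01 to 0.22, Mki67 -0.23 to 0.04, Vim -0.87 to 1.76 and Col1a1 -0.88 to 1.50. Sox6 was -0.04 after quantile normalization. Vim was -0.12 with a pseudocount of 5, -0.09 after quantile normalization and -2.11 with edgeR. Col1a1 was called only with both libraries left out (0.84, adjusted p = 0.0312 by limma).

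A change of low genes is understated by the pseudocount, and 3 libraries a group limit the calls within a condition. Sign flips of list medians near 0 included the AhR partner list (-0.03, and 0.02 after quantile normalization), the MHC list (-0.03, and 0.01 with edgeR) and the amino acid stress list (0.04, and -0.03 without WT stem replicate 1).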
